A study of Homo sapiens with 6 samples.

Results

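Whole-cell RNA was profiled in forebrain neurons at day 26 of their derivation from H9, an established human embryonic stem cell line. The 2 libraries labelled total cell were described here, out of 6 libraries in the series, and were chosen by that label alone. Both came from wild-type cells given no treatment, and the source field called the same material forebrain neuron progenitor cells. Each library gave 3 kinds of value: FPKM (fragments per kilobase of exon, scaled to library size) for 59609 annotated entries, FPKM for 17936 long noncoding RNA (lncRNA) entries, and FPB for 31559 circular RNAs (circRNAs). The labels do not say whether the 2 replicates were separate cultures, so the spread between them may be technical. No other group of cells was set against them: levels, ranks and the spread of the replicates are described.

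The forebrain forms from the front end of the neural tube, and its upper part, the telencephalon, gives rise to the cortex and striatum. Dorsal telencephalic progenitors form the glutamatergic neurons of the cortex through EMX, NEUROG and TBR1 factors, whereas ventral progenitors use GSX and DLX factors to form GABAergic neurons of the striatum and cortical interneurons. A culture at this stage commonly holds dividing progenitors, which are rich in vimentin and nestin, beside young neurons that build axons from tubulin and microtubule-binding proteins. In bulk RNA, fewer cells of a type and less RNA per cell cannot be told apart.

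The 2 libraries were close to each other gene by gene but not in overall scale. If FPKM steps are read with GENCODE v29 exon lengths, they imply 34.9 M fragments in replicate 1 and 37.4 M in replicate 2 (M, mega), so that 1 fragment on 1 kb of exon was worth 0.0287 and 0.0267 FPKM. A gene was called detected at 1 FPKM or more in both libraries, which 11079 of 19777 protein-coding genes reached (56%). Counts of detected coding genes in the lists below stand beside this share. Over these genes the Pearson correlation of the replicates was 0.995 on the log2(FPKM + 1) scale and the SD of the log2 ratio was 0.12. The median gene was 1.13 times as high in replicate 2 on that scale, and 93.4% of detected genes were higher there. Noncoding RNAs took much of the summed FPKM: the genes of the signal recognition particle RNA held 32.4% in replicate 1 and 32.2% in replicate 2, and the mitochondrial ribosomal RNAs held 10.1% and 10.02%. The entries of ribosomal DNA clones summed to 10964 FPKM in replicate 1 and 1838 FPKM in replicate 2, 5.97 times as high in replicate 1. Whether this share bears on the general shift of coding genes was not tested.

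Genes that mark progenitors and genes that mark neurons were both among the abundant mRNAs. VIM (vimentin, an intermediate filament protein of progenitors; chromosome 10 from 17228259 to 17237593, GRCh38) measured 290.5 and 308 FPKM in replicates 1 and 2 and ranked 20 of all coding genes. NES (nestin; chromosome 1 from 156668763 to 156677397) measured 48.7 and 56.4 FPKM at rank 195. SOX2 (a progenitor transcription factor; chromosome 3 from 181711924 to 181714436) measured 21.7 and 23.5 FPKM at rank 637. All 3 progenitor genes lay in the top 5% of coding genes by level. PAX6 (a factor of dorsal and eye progenitors; chromosome 11 from 31784779 to 31818062) was lower, at 6.75 and 7.49 FPKM and rank 3161. STMN2 (stathmin 2, a microtubule regulator of growing axons) measured 154 and 179 FPKM at rank 44. TUBB3 (neuronal class beta tubulin; chromosome 16 from 89921392 to 89938761) measured 61.1 and 65.7 FPKM at rank 151. DLX2 (a factor of ventral progenitors; chromosome 2 from 172099439 to 172102900) measured 9.89 and 10.6 FPKM at rank 1931. The same 7 genes were higher in replicate 2, as most genes were, and each differed between replicates by far less than it differed from the median coding gene, which stood at 1.49 and 1.74 FPKM. The exons of TUBB3, PAX6 and VIM overlap other annotated genes over 35.8%, 26.1% and 24.4% of their length, so part of their fragments could have been assigned elsewhere.

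**Figure D1:**
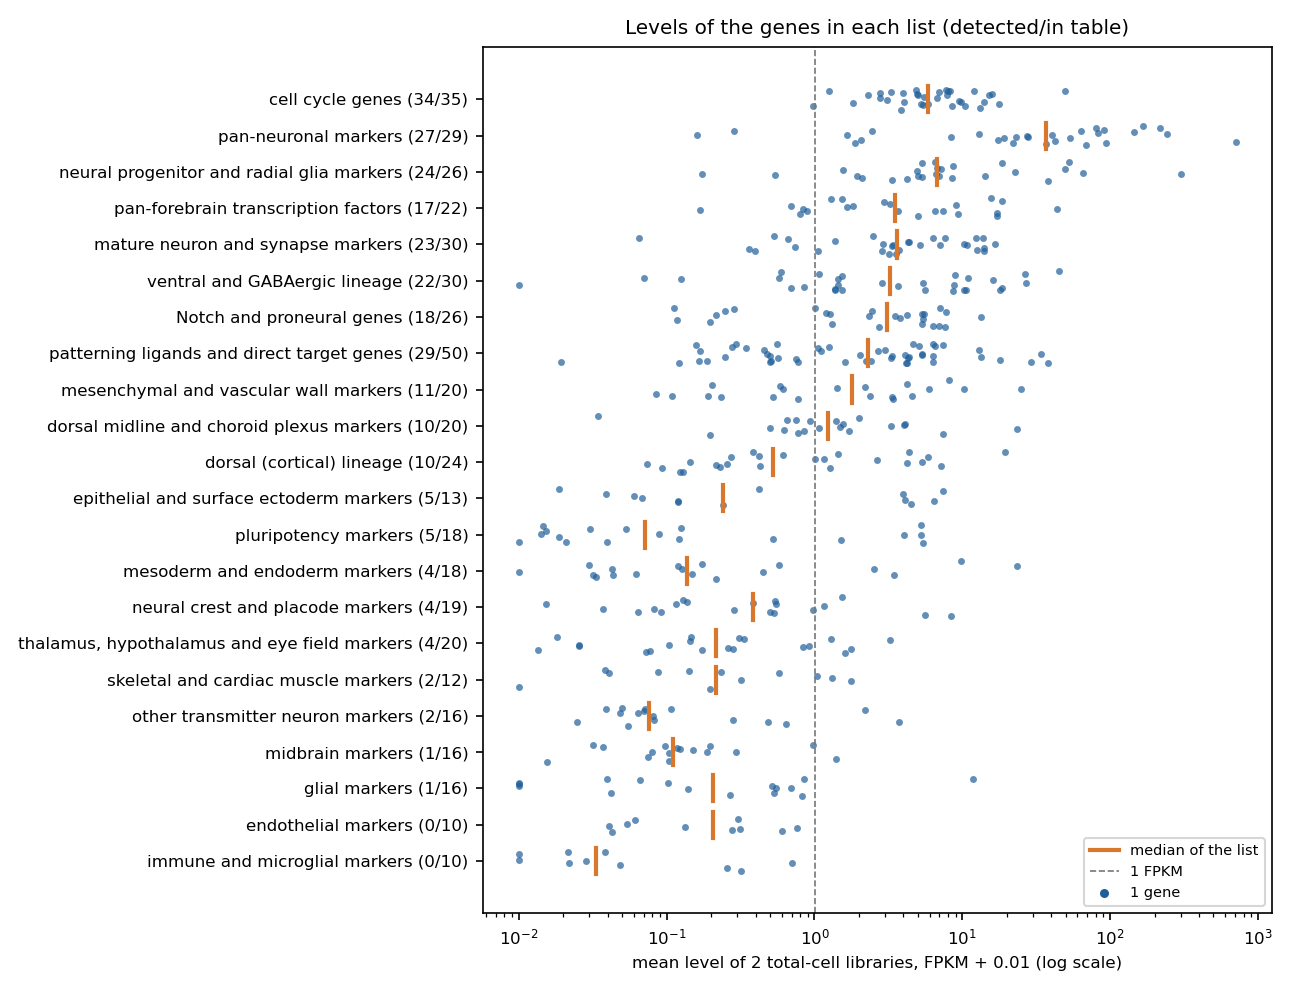
Mean level of each gene of 22 lists over the 2 total-cell libraries, as FPKM + 0.01 on a log axis, with 1 point per gene and an orange bar at the median of the list. Pan-neuronal markers have the highest median, 37.1 FPKM. The medians of the dorsal (cortical), other transmitter, midbrain, glial, immune, endothelial and pluripotency lists lie below 1 FPKM. So do those of the thalamus, hypothalamus and eye field, mesoderm and endoderm, neural crest, epithelial and muscle lists.

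Of the progenitor and radial glia list 24 of 26 members passed 1 FPKM (92.3%, beside 56% of all coding genes), with a list median of 6.71 FPKM. After VIM the highest, beside NES, were SOX11, a factor shared by progenitors and new neurons, at 59.7 and 72.1 FPKM, and CDH2, the N-cadherin of neuroepithelial junctions, at 44.6 and 53.7 FPKM. ID4, an inhibitor of basic helix-loop-helix factors, measured 34.5 and 41.6 FPKM, and MSI1, an RNA-binding protein of progenitors, 18.2 and 18.6 FPKM. The list therefore spanned much of the range of coding genes. Genes typical of radial glia proper were lower: FABP7, a fatty acid binding protein, measured 5.999 and 7.52 FPKM and SLC1A3, a glutamate transporter, 1.899 and 2.27 FPKM, while the outer radial glia genes FAM107A and HOPX measured 0.46 and 0.60 FPKM and 0.14 and 0.19 FPKM. These last 2 were the only members of the list below the detection level.

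Genes of the cell cycle were almost all detected, 34 of 35 (97.1%, beside 56% of all coding genes). Their levels were moderate, with a list median of 5.89 FPKM. MKI67, the proliferation antigen, measured 6.53 and 6.87 FPKM, and TOP2A, the topoisomerase of dividing cells, 8.33 and 10.6 FPKM. PCNA, the sliding clamp of DNA replication, measured 13.6 and 16.8 FPKM, and the cyclins CCND2 and CCNB1 14.1 and 17.5 FPKM and 7.225 and 9.14 FPKM. Only CCNE1 (0.995 and 0.954 FPKM) missed the level. The cell cycle inhibitors CDKN1A (12.4 and 13.9 FPKM) and CDKN1B (12.9 and 15.3 FPKM) were at levels like those of the replication genes.

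Pan-neuronal genes had the highest median of all lists, 37.1 FPKM, with 27 of 29 detected (93.1%, beside 56% of all coding genes). They held 2.19% ± 0.0517 (SD, n = 2) of the summed coding FPKM. TUBA1A, the alpha tubulin of young neurons, measured 690.2 and 732.8 FPKM, and the beta tubulins TUBB2A and TUBB2B measured 236 and 247 FPKM and 209 and 223 FPKM. These tubulins have near-identical copies, so the split of fragments among them is uncertain. GAP43, a growth cone protein, measured 141 and 147 FPKM. The microtubule-binding proteins DCX and MAP2 measured 72.7 and 87.5 FPKM and 61.6 and 75.1 FPKM. Genes of growing axons and the young neuronal cytoskeleton thus filled the top of the list. Its lower end held markers that rise with maturation: RBFOX3, which encodes the nuclear antigen NeuN, measured 1.97 and 2.12 FPKM, MAPT, which encodes tau, 1.65 and 1.66 FPKM, and MYT1L, a neuronal repressor of other fates, 1.67 and 2.09 FPKM. PRPH (0.23 and 0.32 FPKM), a filament protein of peripheral neurons, and NHLH2 (0.16 and 0.14 FPKM) were below 1 FPKM.

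Of the genes of synapses and mature excitability 23 of 30 were detected (76.7%, beside 56% of all coding genes). Their list median was 3.62 FPKM, far below the pan-neuronal one. The vesicle proteins SYP, SNAP25, VAMP2 and SYT1 measured 13.4 and 14.4, 12.6 and 15.2, 12.3 and 12.7, and 11.1 and 13.7 FPKM. Among receptors, the AMPA subunits GRIA1 (15.6 and 17.7 FPKM) and GRIA2 (12.6 and 15.3 FPKM) stood above the NMDA subunits GRIN2B (2.31 and 2.61 FPKM), GRIN1 (0.63 and 0.67 FPKM) and GRIN2A (0.34 and 0.36 FPKM). Not every AMPA subunit did so: GRIA4 measured a mean of 1.37 FPKM, below GRIN2B. The voltage-gated sodium channel genes were ordered SCN3A (6.77 and 8.50 FPKM), the form of the fetal brain, SCN2A (mean 3.54 FPKM) and SCN1A (0.05 and 0.06 FPKM), the form of the mature brain, with no overlap of the replicates between them. The chloride transporters that set the response to GABA were close together, with the importer SLC12A2 at 3.06 and 3.65 FPKM and the exporter SLC12A5 at 2.70 and 2.97 FPKM. The replicates of these 2 transporters did not overlap, but the difference of their means was smaller than that between the replicates of SLC12A2.

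Forebrain transcription factors were detected in 17 of 22 cases (77.3%, beside 56% of all coding genes). Among the higher members, the POU factors POU3F3 and POU3F2, which act in neural progenitors and new neurons, measured 16.2 and 18.2 FPKM and 15.6 and 18.7 FPKM. The factors of the anterior neural plate were also present: ZIC1 at 15.5 and 15.8 FPKM, SIX3 at 9.23 and 8.90 FPKM, OTX2 at 6.84 and 7.92 FPKM and LHX2 at 6.39 and 6.61 FPKM. The 5 members below 1 FPKM in at least 1 library were RAX, SIX6, HESX1, DMRTA2 and DMRT3, of which RAX and SIX6 mark the eye field and hypothalamus (0.75 and 0.89, and 0.75 and 0.84 FPKM).

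The ventral and GABAergic list had 22 of 30 members detected (73.3%) and a median of 3.25 FPKM, and the dorsal list 10 of 24 (41.7%) and a median of 0.51 FPKM. The share of all coding genes detected, 56%, lay between them, and the difference of the lists was not tested. MEIS2, a homeobox factor of the lateral ganglionic eminence and striatum, measured 42.2 and 47.6 FPKM. The DLX factors of the subpallium followed, with DLX5 at 26.0 and 27.9 FPKM, DLX1 at 25.5 and 27.6 FPKM and DLX6 at 15.5 and 17.0 FPKM. Of the 6 DLX genes, these and DLX2 were detected and DLX3 and DLX4 were not. Upstream of them, GSX2, a determinant of the lateral ganglionic eminence, measured 3.26 and 4.07 FPKM. ISL1 and EBF1, factors of striatal projection neurons, measured 5.15 and 6.02 FPKM and 8.26 and 9.002 FPKM.

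Genes of the medial ganglionic eminence were at the low end of the ventral list. NKX2-1, its defining factor, measured 0.52 and 0.64 FPKM. LHX6, which acts downstream of NKX2-1 in interneurons, measured 0.09 and 0.14 FPKM, and PVALB, of mature fast-spiking interneurons, was listed at 0 in both libraries. SST, a peptide of interneurons that largely arise in that eminence, measured 8.05 and 9.51 FPKM, and LHX8, a factor of its cholinergic neurons, 1.26 and 1.80 FPKM. The members associated with this eminence therefore did not share 1 level. The enzymes and transporter of GABA itself were well above 1 FPKM: GAD2 at 16.1 and 19.97 FPKM, GAD1 at 9.86 and 11.8 FPKM and SLC32A1, the vesicular GABA transporter, at 9.87 and 11.3 FPKM. The calcium-binding protein gene CALB1 measured 8.27 and 9.44 FPKM and CALB2 1.34 and 1.54 FPKM.

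The dorsal list was divided. RELN, the signal of Cajal-Retzius cells, measured 17.7 and 20.9 FPKM and headed the list. The deep-layer factors BCL11B and TBR1 measured 6.87 and 7.49 FPKM and 4.89 and 5.69 FPKM, and EMX2, a factor of dorsal progenitors, 4.16 and 4.51 FPKM. BCL11B also acts in striatal neurons and RELN is also made by some interneurons, so neither is particular to the cortex. The genes of the excitatory differentiation sequence were low: EOMES, of intermediate progenitors, measured 0.26 FPKM in both libraries (33 and 36 fragments), NEUROD1 0.20 and 0.30 FPKM, NEUROD6 0.12 and 0.11 FPKM and NEUROD2 0.06 and 0.07 FPKM. NEUROG2, the proneural factor that starts that sequence, measured 0.79 and 1.19 FPKM. Of the vesicular glutamate transporters, SLC17A6 measured 1.25 and 1.60 FPKM and SLC17A7, the cortical form, 0.10 and 0.06 FPKM. The transporters of glutamate were thus below the vesicular transporter of GABA in both libraries.

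**Figure D2:**
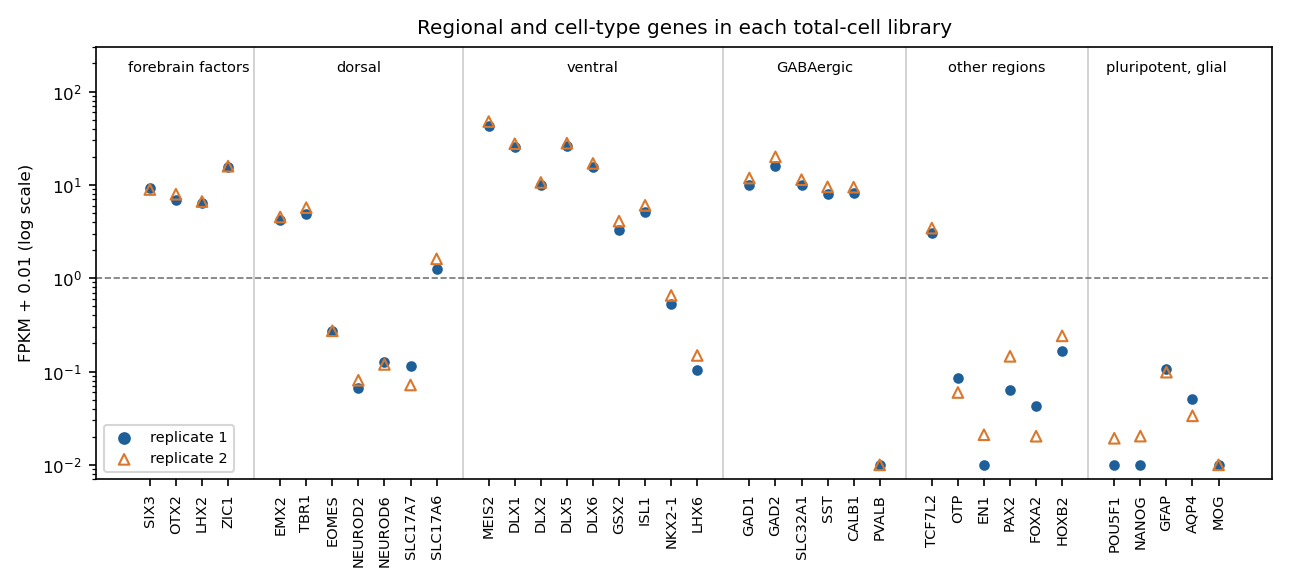
Level of 37 regional and cell-type genes in each total-cell library, as FPKM + 0.01 on a log axis; blue circles are replicate 1, orange triangles replicate 2 and the dashed line is 1 FPKM. DLX1, DLX2, DLX5, DLX6, GAD1, GAD2 and SLC32A1 lie between 9.86 and 27.9 FPKM, whereas EOMES, NEUROD2, NEUROD6 and SLC17A7 lie below 0.3 FPKM. Other members go the other way. TBR1, EMX2 and SLC17A6 of the dorsal panel lie above 1 FPKM, and NKX2-1, LHX6 and PVALB of the ventral and GABAergic panels lie below it.

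Genes of other brain regions were largely below detection. None of the 39 HOX genes, which mark hindbrain and spinal cord, reached 1 FPKM, 9 were listed at 0 in both libraries and the highest, HOXB2, measured 0.16 and 0.23 FPKM. The midbrain list had 1 of 16 members detected, LMX1A (1.34 and 1.44 FPKM), which also marks the dorsal midline of the forebrain, and the midbrain factors EN1 and PAX2 measured 0 and 0.01 FPKM and 0.05 and 0.14 FPKM. None of the 6 IRX genes was detected. In the list for thalamus, hypothalamus and eye field 4 of 20 members were detected, among them TCF7L2 at 3.02 and 3.43 FPKM, FOXP2 at 1.67 and 1.83 FPKM and PMEL at 1.47 and 1.74 FPKM. The hypothalamic factor OTP measured 0.07 and 0.05 FPKM and NKX2-2 0.01 and 0 FPKM.

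The dorsal midline and choroid plexus list had 10 of 20 members detected, 50%, near the 56% of all coding genes. TTR (transthyretin, which the choroid plexus and the liver secrete) measured 22.2 and 24.9 FPKM. The signals of the cortical hem RSPO2, BMP7 and WNT8B measured 3.91 and 4.09, 3.87 and 4.27, and 2.89 and 3.68 FPKM. The water channel AQP1 (0.61 FPKM in both libraries) and the potassium channel KCNJ13 (0.81 and 0.88 FPKM), which are typical of choroid plexus epithelium, were below 1 FPKM. The values of this list lay close to the threshold: with each library scaled to a sum of 1000000 over all entries, 18 members reached it.

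Transmitter genes other than those of GABA and glutamate were rarely detected, with 2 of 16 members at 1 FPKM. These were TH, the rate-limiting enzyme of catecholamine synthesis (3.86 and 3.59 FPKM), and DDC, the next enzyme of that pathway (1.89 and 2.50 FPKM). The dopamine transporter SLC6A3 measured 0.03 and 0 FPKM, the vesicular monoamine transporter SLC18A2 0.64 and 0.63 FPKM and the midbrain dopaminergic factor PITX3 0.02 and 0.06 FPKM. The serotonergic enzyme TPH2 and the cholinergic enzyme CHAT stood at 0.06 FPKM and 0.06 FPKM in replicate 1 and at 0.06 FPKM and 0.08 FPKM in replicate 2.

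Notch signalling keeps progenitors from differentiating. In the Notch and proneural list 18 of 26 genes were detected (69.2%, beside 56% of all coding genes), and the difference was not tested. The receptors NOTCH1, NOTCH2 and NOTCH3 measured 5.06 and 5.59, 4.03 and 4.44, and 2.57 and 2.87 FPKM. Among ligands, JAG1 (5.24 and 5.79 FPKM) and DLL3 (2.27 and 2.59 FPKM) were detected, whereas DLL1 (0.24 FPKM in both libraries) and DLL4 (0.28 and 0.27 FPKM) were not. The target repressors HES5, HES1 and HES4 measured 6.66 and 7.23, 4.63 and 6.07, and 7.59 and 7.63 FPKM, and HEY2 and HEYL were below 0.13 FPKM.

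Of 50 patterning ligands and target genes 29 were detected (58%, near the 56% of all coding genes). Hedgehog pathway genes included the receptor PTCH1 at 4.52 and 4.79 FPKM, SMO at 6.06 and 6.58 FPKM and GLI3, the mainly repressive GLI factor of the dorsal forebrain, at 6.34 and 6.65 FPKM. The ligand SHH measured 0.45 and 0.48 FPKM and GLI1, a direct target of the pathway, 0.30 and 0.23 FPKM. Secreted Wnt modulators were abundant, with SFRP2 at 17.2 and 18.7 FPKM and SFRP1 at 12.2 and 13.6 FPKM, while the Wnt target AXIN2 measured 4.16 and 4.44 FPKM. The retinoic acid binding proteins CRABP1 and CRABP2 measured 34.0 and 33.8 FPKM and 29.6 and 28.8 FPKM. The enzymes that make or break down retinoic acid in this list (ALDH1A2, CYP26A1 and CYP26B1) were all below 0.2 FPKM. FGF8, the signal of the anterior ridge, measured 0.35 and 0.22 FPKM, beside its feedback targets SPRY2 (5.83 and 6.82 FPKM) and DUSP6 (5.78 and 6.96 FPKM).

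Pluripotency genes split into core factors near 0 and other members that were detected. POU5F1 was listed at 0 in replicate 1 and at 1 fragment in replicate 2, and NANOG at 0 and 0.01 FPKM. The 5 of 18 members detected were TERF1, a telomere protein (4.86 and 5.70 FPKM), the let-7 regulators LIN28B (4.72 and 6.17 FPKM) and LIN28A (4.68 and 5.84 FPKM), DNMT3B, a DNA methyltransferase (3.70 and 4.35 FPKM), and DPPA4 (1.36 and 1.64 FPKM). LIN28A, LIN28B and DNMT3B are also made by early neural progenitors.

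Glial and blood lineage genes were mostly below detection. The astrocyte genes GFAP and AQP4 measured 0.10 and 0.09 FPKM and 0.04 and 0.02 FPKM, and the myelin genes MOG and MAG were listed at 0 in both libraries. GJA1, a gap junction protein of radial glia as well as astrocytes, was the 1 of 16 glial members detected (10.7 and 12.9 FPKM). None of 10 immune and microglial genes was detected, with TYROBP and C1QB at 0, and none of 10 endothelial genes, of which KDR was highest at 0.67 and 0.82 FPKM.

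Some genes of mesenchyme, epithelium and endoderm were detected at several FPKM. The mesenchymal and vascular wall list had 11 of 20 members detected, 55% and so near the 56% of all coding genes, with the highest values for the collagen COL3A1 (22.2 and 27.4 FPKM), the matrix protein FN1 (mean 10.2 FPKM) and TAGLN (7.49 and 8.83 FPKM), a smooth muscle actin-binding protein. Its transcription factors TWIST1, TWIST2, PRRX1, FOXC1 and FOXC2 were all below 0.25 FPKM, and PDGFRB, a mural cell receptor, measured 0.58 and 0.63 FPKM. In the epithelial list KRT19 (6.93 and 7.82 FPKM), KRT8 (5.94 and 6.93 FPKM), KRT18, CLDN6 and EPCAM were detected, 5 of 13, while the epithelial cadherin CDH1 measured 0.21 and 0.25 FPKM. In the mesoderm and endoderm list 4 of 18 were detected, TTR, AFP (alpha-fetoprotein, made by yolk sac and fetal liver; 8.99 and 10.7 FPKM), CXCR4 and APOA1 (2.28 and 2.74 FPKM). The factors that define these germ layers were close to 0: TBXT was listed at 0, SOX17 at 1 and 3 fragments, FOXA2 at 3 and 1 fragments, and HNF4A at 0.05 and 0.02 FPKM. In the neural crest and placode list 4 of 19 were detected, led by NGFR (7.96 and 8.91 FPKM) and ISL1, with SOX10 at 0.57 and 0.50 FPKM and FOXD3 at 0.03 and 0.02 FPKM. Of 12 muscle genes 2 were detected, the actins ACTC1 and ACTA1, which share long identical stretches with other actins.

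The most abundant coding transcripts were those of mitochondria, the cytoskeleton and histones. MT-CO3, a subunit of cytochrome c oxidase, ranked first at 1688 and 1877 FPKM, and 13 of 13 mitochondrially encoded protein genes together held 9.61% ± 0.806 (SD, n = 2) of the summed coding FPKM. The cytosolic ribosomal protein genes held 5.20% ± 0.106 and the histone genes 4.001% ± 0.106. Of the 25 highest coding genes 17 belonged to these 3 families, among them the linker histone gene H1-4 at 418 FPKM in both libraries. Most histone messages lack a poly(A) tail and are recovered by ribosomal RNA depletion. The histone family as counted here left out H3-3B (139 and 170 FPKM). Both histone and ribosomal protein genes have close paralogs, which make single values uncertain. Outside the families the order was ACTG1 (836 and 918 FPKM), TMSB10 (805 and 861 FPKM), ACTB (706 and 789 FPKM), TUBA1A, VIM, NNAT (265 and 273 FPKM), GAPDH and HSPA8. TMSB10 binds actin monomers and NNAT, neuronatin, is an imprinted gene of the developing brain. Genes with mainly neuronal roles further down were the tubulins TUBB2A and TUBB2B, the microtubule protein gene MAP1B (186 and 214 FPKM), STMN2 and GAP43, beside housekeeping factors such as EEF2 (207 and 230 FPKM) and HSP90AB1 (161 and 186 FPKM). The imprinted gene PEG10, which derives from a retrotransposon, measured 125 and 146 FPKM.

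Of the lncRNA entries 5753 of 17936 (32.1%) reached 0.3 FPKM in both libraries, but most of the highest shared their exons with other genes. Of the 20 highest, 7 overlapped an exon of another gene on the same strand, 7 overlapped a coding exon on the opposite strand, 1 another opposite exon, and 4 had no match in the annotation used. The 4 without a match were entries of ribosomal DNA clones, all higher in replicate 1, such as FP236383.5 (8090 and 1233 FPKM). Only RMRP, the RNA of a ribonuclease that processes ribosomal RNA, overlapped no gene of another symbol (4028 and 4849 FPKM). Entries of the same symbol were not compared with each other. For example, AL133415.1 (chromosome 10 from 17233325 to 17234833) lies opposite VIM and measured 316 and 364 FPKM in the lncRNA table but 168 and 196 FPKM in the table described as mRNA. VIM-AS1, also opposite VIM, measured 123 and 116 FPKM in the lncRNA table and 0.65 and 0.62 FPKM in the other.

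The difference between the tables followed the overlap. Of 2029 detected lncRNAs opposite a coding exon, 90.4% had a value in the lncRNA table more than 2% above the other table and 20.4% had 2 times that value within 2%. Of 2281 with no overlap, 74.0% had the same value within 2%. Across 1996 pairs of an opposite-strand lncRNA and its coding partner the rank correlation of their levels was 0.492, a description of pairs that come from the same libraries and may share reads. The strand setting of the authors' counting is not given in the sources used here, so reads of an antisense lncRNA and of its coding partner cannot be told apart.

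**Figure D3:**
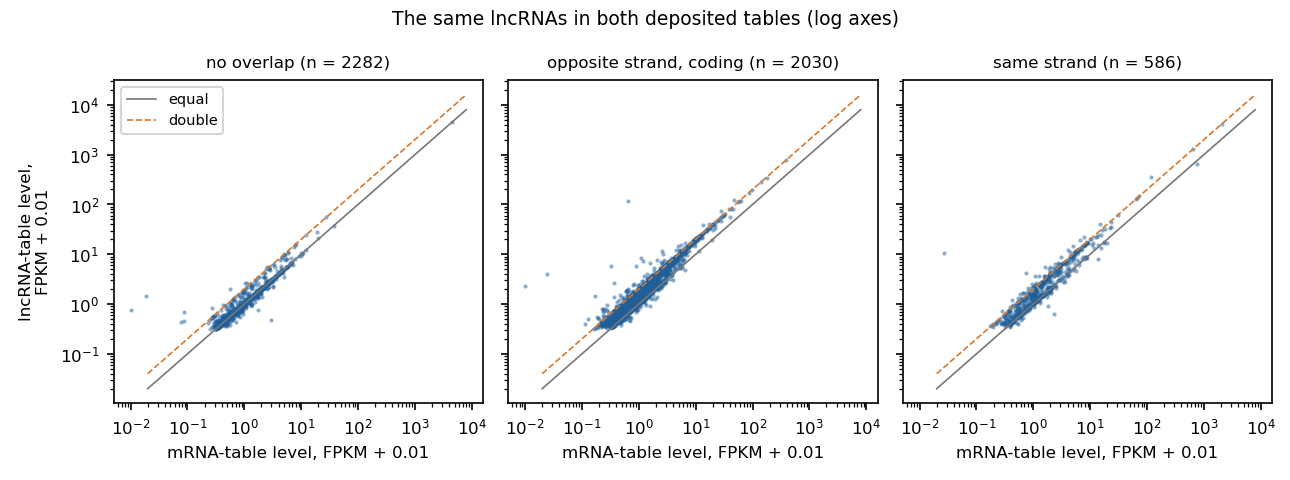
Level of each detected lncRNA in the lncRNA table against its level in the table described as mRNA, both as mean FPKM + 0.01 of the 2 total-cell libraries on log axes, by the overlap of its exons with other genes; the solid line marks equal values and the dashed line values 2 times as high in the lncRNA table. Points without overlap lie mostly on the solid line, and those opposite a coding exon lie mostly above it.

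Among lncRNAs free of overlap and with the same value in both tables, a set added after the data were seen (1688 of the 5753 detected), the highest after RMRP was NORAD at 33.4 and 40.7 FPKM, a cytoplasmic lncRNA that binds Pumilio proteins, followed by KC877982.1 (10.8 and 13.6 FPKM) and LINC01963 (9.84 and 11.5 FPKM). Of the listed lncRNAs with a known role 39 of 53 were detected (73.6%, beside 32.1% of all lncRNA entries), and the difference was not tested. MALAT1, a nuclear speckle RNA, measured 568 and 712 FPKM in the lncRNA table and 668 and 838 FPKM in the other. Neural lncRNAs followed at lower levels. MIR124-2HG, a host of the neuronal microRNA miR-124, measured 19.1 and 23.0 FPKM, MIAT 15.0 and 18.7 FPKM, RMST, which binds SOX2 in neural progenitors, 14.2 and 17.0 FPKM, and DLX6-AS1, which lies in the DLX5 and DLX6 locus, 8.12 and 9.76 FPKM. The maternally expressed imprinted lncRNA H19 measured 16.9 and 16.2 FPKM and MEG3, of another imprinted locus, 0.06 FPKM in both libraries. HOTAIR, from the HOXC cluster, was listed at 0, and the pluripotency lncRNA ESRG measured 0.03 and 0.10 FPKM.

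CircRNAs form when a splice donor joins an upstream acceptor, and a read across that back-splice junction identifies the ring. The junctions of the most abundant rings whose ends matched annotated exons are shown because each is the sequence that tells the ring from the linear RNA: lower case gives the last 20 bases of the donor exon and capitals the first 20 bases of the acceptor exon, read 5′ to 3′ on the transcribed strand from GENCODE v29 transcripts (hg38, starts counted from 1).
RMST, chr12:97492461-97561047, plus strand: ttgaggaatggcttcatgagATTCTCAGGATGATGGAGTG
MAN1A2, chr1:117402186-117420649, plus strand: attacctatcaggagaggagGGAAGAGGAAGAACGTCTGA
MSANTD3-TMEFF1, chr9:100498765-100516771, plus strand: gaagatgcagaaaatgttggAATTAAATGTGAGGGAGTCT
RIMS1, chr6:72295937-72333835, plus strand: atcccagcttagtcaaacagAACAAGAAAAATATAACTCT
SMARCA5, chr4:143543509-143543972, plus strand: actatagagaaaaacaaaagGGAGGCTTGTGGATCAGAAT
CAMSAP1, chr9:135881633-135883078, minus strand: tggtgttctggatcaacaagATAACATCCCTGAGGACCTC
FAT3, chr11:92352096-92355404, plus strand: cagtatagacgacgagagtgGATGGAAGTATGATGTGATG
SPECC1, chr17:20204333-20205912, plus strand: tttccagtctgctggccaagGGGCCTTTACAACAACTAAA

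The FPB values fell on whole steps in each library, which gave 26114 back-splice reads in replicate 1 and 33318 in replicate 2. Of the 31559 circRNAs, 14850 had a read in at least 1 total-cell library, 3504 in both, and 1311 had 3 or more reads in both (4.15%). The limit that 0 reads allow, taken as 3 reads, was 0.369 FPB in replicate 1 and 0.296 FPB in replicate 2. Intervals and floors cover counting error only, since the reads carried no molecular identifiers.

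The ring of RMST was the most abundant, with 603 and 723 reads, or 74.3 FPB (95% Poisson interval 68.5 to 80.4) and 71.2 FPB (66.1 to 76.6). It spans 9 exons and 1591 bases of exon, and holds 2.31% and 2.17% of all back-splice reads. CDR1-AS, an antisense ring of the brain with many microRNA binding sites, followed with 229 and 305 reads (28.2 and 30.0 FPB). MAN1A2, which encodes a Golgi mannosidase, had 217 and 278 reads (26.7 and 27.4 FPB). The intervals of these rings did not reach that of RMST in either library, and those of neighbouring ranks after it overlapped: MSANTD3-TMEFF1 measured 28.1 and 23.7 FPB and RIMS1, of the presynaptic active zone, 25.6 and 22.3 FPB. SMARCA5, a chromatin remodelling ATPase, measured 19.8 and 21.6 FPB. From rank 7 to rank 20 the means lay between 15.8 and 9.08 FPB, and neighbours in this order did not differ beyond their intervals. This stretch held rings known from many tissues, HIPK3 (13.1 and 11.7 FPB), CDYL (14.3 and 10.05 FPB), ZKSCAN1 (11.9 and 11.6 FPB) and ZNF609 (12.9 and 9.16 FPB), beside those of FAT3, an atypical cadherin, VCAN, a matrix proteoglycan, and AFF2. The 20 highest held 11.8% and 11.1% of all back-splice reads.

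**Figure D4:**
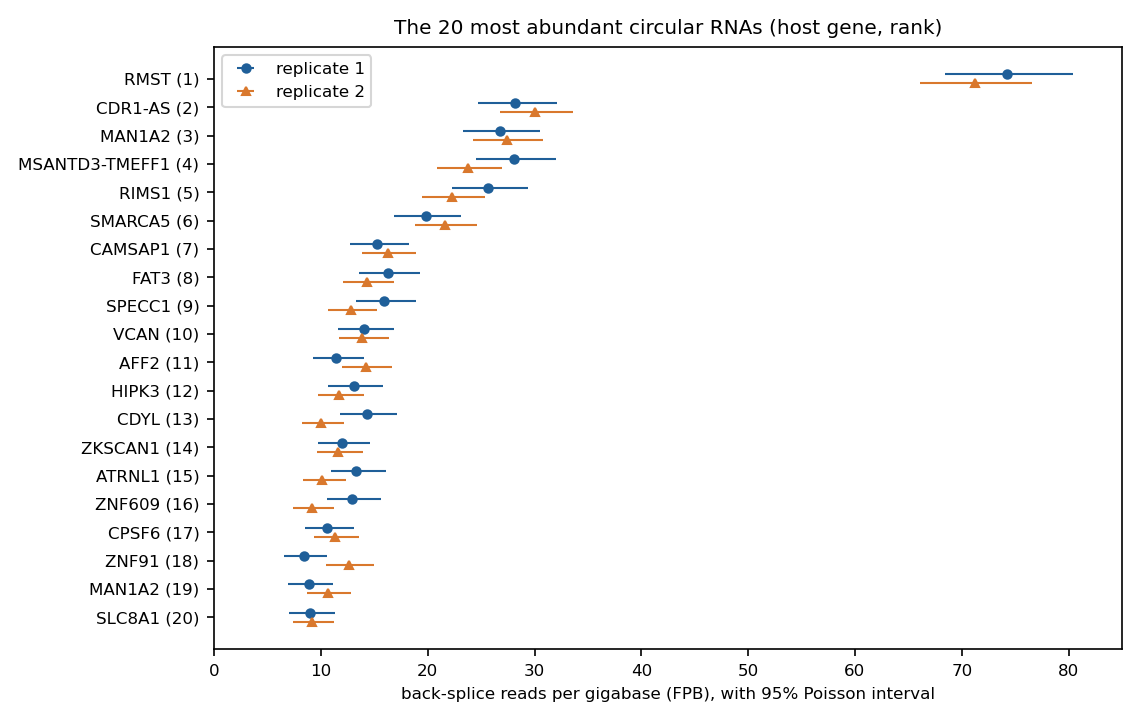
Level of the 20 most abundant circRNAs in each total-cell library, in FPB with the 95% Poisson interval of the reads; blue circles are replicate 1 and orange triangles replicate 2. RMST stands apart at 74.3 and 71.2 FPB, and from rank 7 on the intervals of neighbours overlap.

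Rings were spread over many genes. The 1311 detected rings came from 923 host genes, of which 678 (73.5%) gave 1 ring. ATRNL1 gave the most, 10 rings that summed to 30.8 and 27.7 FPB, then RERE with 8 rings (22.2 and 25.2 FPB), while MAN1A2 gave 4 rings (45.7 and 46.7 FPB). The median host stood at 5.56 FPKM and rank 4242 of coding genes. The rank correlation between the level of the host gene and the summed level of its rings was 0.227 over 879 hosts, across genes of the same libraries, and is a weak relation in sparse counts. RIMS1, whose ring was at rank 5, had a host level of 4.37 FPKM, and VCAN, at rank 10, one of 87.4 FPKM.

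The reconstructed rings were short. Over 1283 detected rings with both ends on the exons of 1 transcript the median was 3 exons and 465 bases of exon (quartiles 315 and 792), and 165 rings (12.9%) were single exons. The rings of FAT3, SPECC1, VCAN, AFF2, HIPK3, CDYL and SLC8A1 were single exons, VCAN with 5262 bases. The median adenosine content was 30.6% (quartiles 27.5% and 33.7%), and 32.4% over the 17 of the 20 highest rings with a reconstruction, from 24.0% for CAMSAP1 to 39.6% for the shorter MAN1A2 ring. Adenosine content and level had a rank correlation of -0.02 over these rings, and exonic length and level of -0.03. All exons between the ends were taken as kept, which junction reads do not show. Where several transcripts matched, a coding one was preferred and then the one with the most exons. Exon counts and lengths depend on that choice.

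Some listed genes of progenitors and neurons gave detected rings. Of all 19777 coding genes, 875 were hosts of a detected ring. Whether the lists differ from that share was not tested. GLI3 gave 4 detected rings (5.91 and 6.11 FPB in sum), MIB1, a ubiquitin ligase of Notch ligands, 4 rings (6.77 and 8.28 FPB) and CUX1 1 ring (4.31 and 2.76 FPB). MAP2 gave 2 rings that summed to 2.46 and 2.76 FPB although its gene level was 68.3 FPKM, and BCL11B 1 ring at 2.46 and 2.36 FPB. No ring of a DLX gene was among the detected ones.

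Few rings differed between the replicates after adjustment. Of 433 rings with at least 20 reads over both libraries, 3 differed (0.693%) at a Benjamini-Hochberg adjusted p below 0.05. The test was an exact two-sided binomial test of the reads against the share of mapped bases. Before adjustment 46 of the 433 had a p below 0.05 in this test. That is a larger share than the 0.05 that counting error alone would give at most. The test compares these 2 libraries and no conditions. A ring of PHF21A had 46 reads in replicate 1 and 0 in replicate 2 (exact binomial test, adjusted p = 2.7e-14). The other two had reads in replicate 2 alone: a ring of SLTM with 0 and 49 reads (exact test, adjusted p = 1.1e-10) and a ring of SCLT1 with 0 and 42 reads (exact test, adjusted p = 3.1e-09). A shorter ring of SLTM that shares the same start had 3 and 5 reads, so the host gave rings in both libraries.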

How the data were processed

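RNA of 2 total-cell libraries was described. Per the labels' protocols, RNA was taken up in Trizol, depleted of ribosomal RNA and made into stranded total RNA libraries for a NovaSeq instrument. Per the submitters' processing notes the tools were featureCounts 2.0.1, HISAT2 2.1.0, Trimmomatic 0.39, Bowtie and SAMtools 1.9 and the builds GRCh38 and hg38, with no role stated. The annotation release, strand setting, treatment of shared reads and circRNA caller were not given in the sources used. The authors deposited gene levels as FPKM, a unit named in the column headers. The authors deposited circRNA levels as a signal in FPB, again named in the headers. It was read here as fragments per Gb of mapped bases, a meaning the sources used here do not give. The steps then imply 8.12 and 10.2 Gb of mapped bases.

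Protein-coding genes were those of that type in RefSeq or, failing that, in GENCODE v29. Detection needed 1 FPKM (coding), 0.3 FPKM (lncRNA) or 3 reads (circRNA) in both libraries. Fragments were recovered from FPKM steps with GENCODE v29 exon lengths. Of values under 100 fragments 54.2% in replicate 1 and 55.1% in replicate 2 came out whole within 0.02 fragments, so lengths differed for the rest and the depth is approximate. All FPB values came out whole within 0.05 reads. The circRNA table had 7 blank lines, which were skipped. Ranks, means, SDs and exact Poisson intervals were computed with Python 3.11.15, pandas 2.3.3, numpy 2.4.6 and scipy 1.17.1, and figures with matplotlib 3.10.9. The binomial test between replicates was also tested on simulated reads.

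The 23 gene lists, 19 gene families and the naming rule (the 25 highest coding genes, 20 highest lncRNAs and 20 highest circRNAs, every member of a list or family, and the 10 genes with the largest ratio between replicates) were chosen with earlier results of these data known, and 7 more lists after the values were seen. The ratio between replicates was ranked by its distance, on a log scale, from the median ratio of coding genes with a mean of 5 FPKM or more. Alternatives were other thresholds, scalings, denominators and pseudocounts, the other FPKM table, and each replicate left out. The cytoplasmic and nuclear libraries were not analysed here. Some items that the naming rule covers are not reported here.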

Additional observations from a re-analysis of the deposited data

How the results depend on the processing

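The counts of detected features followed the threshold. Detected coding genes numbered 4368 at 5 FPKM and 17363 with any value above 0 in both libraries. They numbered 12607 at 0.5 FPKM, and from 11127 to 11502 when 1 replicate was left out. With each library scaled to a sum of 1000000 over all entries and the cut kept at 1, they numbered 13061. The sums before scaling were 385035 FPKM in replicate 1 and 401669 FPKM in replicate 2. This scaling thus raised all values and acted mainly as a lower cut. Detected lncRNAs numbered 2839 at 1 FPKM, 11290 with any value above 0, and 1688 when only lncRNAs without shared reads were kept. Detected circRNAs numbered 3504 at 1 read, 338 at 10 reads, and from 2142 to 2700 when 1 replicate was left out, because 3 reads in 1 library then sufficed. With at least 10 reads over both libraries, 12 circRNAs differed between replicates instead of 3. Scaling by summed back-splice reads again gave 3. The SD of the log2 ratio of replicates was 0.14 with a pseudocount of 0.1 FPKM and 0.13 without a filter. Scaling to a sum of 1000000 moved the detected count of 12 of 41 lists and families by over 1.5 times. Among them were the glial list (7 in place of 1) and the neural crest list (9 in place of 4). The counts of these lists turn on genes below 1 FPKM. Without replicate 1 the glial, midbrain and PAX counts were 2 in place of 1. The value of 22 of 53 named lncRNAs moved by more than the replicate SD in the other table. No paired analysis was possible because only 1 group was described. Depth limits circRNAs: 56.5% and 55.5% of back-splice reads fell in detected rings. FPKM of overlapping genes, close paralogs and genes under 1 FPKM are the least certain values.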

Other observations

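Further gene groups were chosen after their values were seen, and their counts stand beside the 56% of all coding genes detected. Of 25 axon guidance ligands 16 were detected (64%), with SEMA3C, a secreted semaphorin, at 18.6 and 23.1 FPKM, SLIT2 at a mean of 10.4 FPKM and the ephrins EFNB2, EFNB3 and EFNB1 at means of 14.9, 13.4 and 12.4 FPKM. Of 36 guidance receptors 26 were detected (72.2%), led by ROBO1, a receptor of SLIT proteins, at 18.1 and 21.3 FPKM, PLXNA1, NEO1 (means of 16.9 and 15.3 FPKM) and DCC, the netrin receptor (10.5 FPKM). Peptide genes were detected in 13 of 28 cases (46.4%). VGF, a granule protein, measured 68.3 and 66.3 FPKM, and TAC1, the precursor of substance P, 23.3 and 32.2 FPKM, while VIP, CCK and PENK had means of 0.11, 0.11 and 0.33 FPKM. Of 19 subunits of the GABA-A receptor 4 were detected (21.1%), among them GABRA3, GABRB2 and GABRA5 with means of 4.72, 2.25 and 1.97 FPKM. Of 18 ionotropic glutamate receptor subunits 12 were detected (66.7%).

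Secreted proteins of hepatocytes and yolk sac, also listed after values were seen, were detected in 12 of 17 cases (70.6%). After TTR and AFP the highest was APOA2, an apolipoprotein, at a mean of 8.17 FPKM, followed by APOC3 and AHSG with means of 3.17 and 2.65 FPKM. Albumin (ALB) measured 0.48 and 0.64 FPKM and transferrin (TF) had a mean of 0.05 FPKM. Of 20 retinal and lens genes 2 were detected, CRYAA and BEST1; BEST1 (16.9 and 19.9 FPKM) shares 14.2% of its exon length with another gene.

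RPS29, a ribosomal protein gene, had the largest ratio between replicates of all coding genes at 5 FPKM or more. It measured 7.32 FPKM in replicate 1 and 36.6 FPKM in replicate 2. Other genes share 8.85% of its exon length, and whether shared reads bear on this ratio was not tested. By distance from the median ratio of replicate 2 to replicate 1, the next genes were all lower in replicate 2. They were IFITM2 (5.79 and 4.24 FPKM), AC090227.1 (20.2 and 15.5 FPKM), POLR2A, the largest subunit of RNA polymerase II (13.2 and 10.1 FPKM), and ATN1 (11.7 and 9.32 FPKM). By the plain ratio, RPL39 (14.2 and 22.2 FPKM), which was higher in replicate 2, stood above IFITM2. The pseudogene EEF1A1P5 was listed at 1098 and 1176 FPKM, above its parent gene EEF1A1 at 201 and 242 FPKM.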
